A study of Rattus norvegicus with 9 samples.

Results

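Left testis RNA of rats with an experimental varicocele given saline (3 libraries) was compared with that of sham-operated control rats (3 libraries), which makes 6 of the 9 libraries of the series. All rats were male Sprague Dawley rats, with an age of 6 to 7 weeks in the labels, which do not say at which step that age applies. Varicocele was modelled by partly tying off the left renal vein, and the controls had the same operation without the tie. The varicocele rats received about 2 mL of saline per day by gavage for 4 weeks, starting 8 weeks after the operation, whereas the controls were fed normally for 12 weeks with no gavage listed, so that venous ligation and gavage cannot be told apart. Operated rats whose veins did not dilate, or whose left kidney shrank, were dropped by the submitters, so the varicocele group stands for rats in which the model took. The remaining 3 libraries, from varicocele rats dosed daily with 300 mg per kg of a polysaccharide of Morinda officinalis root (VC+MOP), lent their spread to the tests. Whether every library came from its own rat is not stated in the labels, and p-values therefore speak only of the spread among libraries, which may be technical. Of 19532 transcripts in the deposited table, 18757 reached an abundance of 0.5 in at least 3 of these 6 libraries and were tested; the other 775 were left out.

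In varicocele the veins draining the testis are dilated. It is known for impaired spermatogenesis, and raised scrotal temperature, poor oxygen supply and oxidative stress are the usual routes by which venous reflux is thought to harm germ cells. Testis RNA comes largely from germ cells at successive stages, with smaller parts from the Sertoli cells that nurse them, the Leydig cells that make testosterone, and vessels. In RNA from whole testis, fewer cells of a type and less RNA per cell cannot be told apart. The transcripts carry rat Ensembl identifiers that neither the table nor the reference used here (0 identifiers matched) pairs with genes. Cell type markers, steroid enzymes and stress genes could therefore not be looked up, the testis label could not be checked against its markers, and results are given by identifier, abundance and number.

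Varicocele testes differed from control testes in 4 of 18757 transcripts at a limma adjusted p below 0.05, which is 0.0213% of those tested. In 2 of them the abundance rose and in 2 it fell. The deposited abundance has no stated unit, and each library's values summed to between 478800 and 486011.

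ENSRNOT00000061032 rose about 3-fold. Control libraries 1 to 3 held 1.17, 1.44 and 1.35 and varicocele libraries 1 to 3 held 3.95, 3.99 and 3.72, so the groups did not overlap. The means were 1.32 ± 0.137 and 3.88 ± 0.145 (SD, n = 3 each), a ratio of 2.94, and the difference on the log2(abundance + 0.5) scale was 1.27 ± 0.09 (SE; 95% interval 1.06 to 1.48; limma adjusted p = 0.00465). It passed in 17 of the 18 alternatives run for it, with limma adjusted p between 0.00357 and 0.0706. Its abundance is modest, with 31.7% of the transcripts tested having a lower mean. The VC+MOP libraries, at 3.77, 3.86 and 3.98, stood at the varicocele level.

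ENSRNOT00000038780 fell to well under its control level. The control libraries held 7.53, 9.37 and 7.22 and the varicocele libraries 3.06, 2.98 and 3.00, with no overlap. The control mean was 8.04 ± 1.16 and the varicocele mean 3.01 ± 0.0452 (SD, n = 3 each), which is 2.67-fold lower. The log2 difference was -1.27 ± 0.11 (SE; 95% interval -1.52 to -1.03; limma adjusted p = 0.00975). This call rested on single libraries, since the limma adjusted p was 0.0648 without control 1 and 0.0566 without varicocele 2, in a range of 0.00725 to 0.0706 over all alternatives run. In the VC+MOP libraries it stood at 2.92, 3.05 and 2.71.

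ENSRNOT00000023376 fell to almost nothing. Its control values were 3.95, 4.95 and 3.77, and its varicocele values 0.00095, 0.00156 and 0.000601 (limma adjusted p = 9.09e-05). A fold against such small values would mean little and is left out. It was the one transcript that passed under each of the 18 alternatives run for it, with limma adjusted p between 1.31e-05 and 0.0052. The stricter filter of 4 libraries leaves it untested. Because it entered the test only through the control libraries, these refits of the same values are no separate support for the call. In the VC+MOP libraries it was listed at 4.35, 3.51 and 3.50, close to the control values.

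ENSRNOT00000047241 rose from nothing to a low level. Every control library listed it at 0, and the varicocele libraries listed it at 1.01, 0.764 and 0.71 (limma adjusted p = 0.0389). All VC+MOP libraries also listed it at 0, so only the varicocele libraries showed any spread. With the VC+MOP group left out of the fit, its limma adjusted p was 0.12. This call was the least secure of the 4 and was lost in 14 of 17 alternatives. Among them was the removal of any 1 of the 9 libraries (limma adjusted p between 0.0658 and 0.126). Over all alternatives the limma adjusted p ran from 0.0395 to 0.372.

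**Figure D1:**
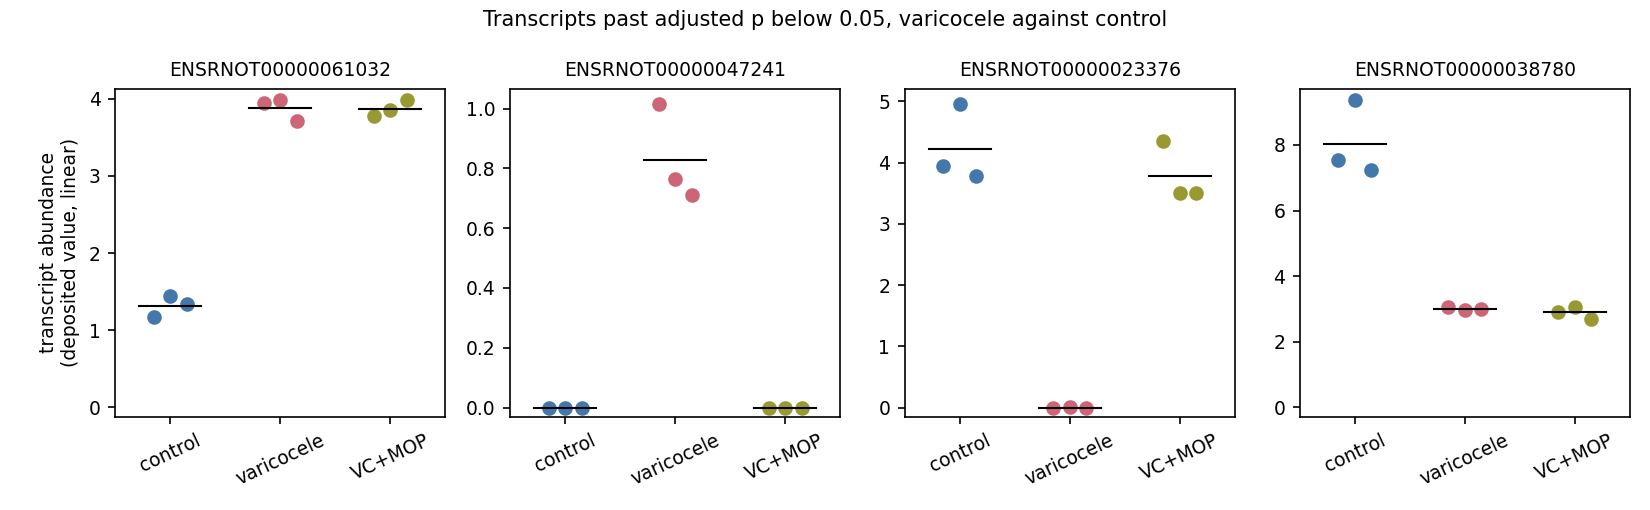
Abundance of the 4 transcripts past the threshold, on the deposited linear scale; each point is 1 library, and the line is the group mean (n = 3). The varicocele points stand clear of the control points in each panel, and the VC+MOP points lie at the varicocele level in the first and last panels (means 3.87 and 2.89) and at or near the control level in the middle ones.

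Being tested could itself favour a difference. Transcripts that reached 0.5 in all libraries of one group and in none of the other entered the test through that group alone. There were 70 of them, 30 through varicocele and 40 through control, and they include 2 of the 4 called transcripts, ENSRNOT00000023376 and ENSRNOT00000047241. When 4 of the 6 libraries had to reach 0.5, 18176 transcripts were tested and the other 2 were called.

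The number of calls depended on which libraries were fitted. Leaving out 1 library gave 2 calls without control 1, 7 without control 2 and 10 without control 3. It gave 6 without varicocele 1, 4 without varicocele 2 and 8 without varicocele 3. There were 5 calls without VC+MOP 1, 7 without VC+MOP 2 and 5 without VC+MOP 3. When the 6 compared libraries were fitted without the VC+MOP group, 8 transcripts (0.0427%) were called, 4 higher and 4 lower, of which 3 were also called with all 9 libraries.

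The other 5 were set apart between control and varicocele but spread widely within VC+MOP. Being called only without VC+MOP favours that pattern, so it is no separate result. Some of them were below 0.5 in every library of one group and so entered the test only through the other. The 3 that were higher in varicocele ran from 0.0167 to 0.539 in the control libraries, from 2.14 to 10.1 in the varicocele libraries and from 0.0166 to 8.97 in the VC+MOP libraries. The 2 that were lower ran from 2.62 to 15.6 in control, from 0 to 1.12 in varicocele and from 0.00987 to 16.0 in VC+MOP. Within VC+MOP their SD of log2(abundance + 0.5) was 1.36 to 2.34, against at most 0.559 within control or varicocele. Each of the 5 thus stood near its control level in at least one VC+MOP library and near its varicocele level in another. With that group in the fit, their limma adjusted p was between 0.727 and 0.997.

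Across all transcripts, most were bounded to within 2-fold of the control level. The absolute log2 difference had a median of 0.083 and its SE a median of 0.124. The 95% interval stayed inside a 1.5-fold change for 13573 transcripts (72.4%) on the log2(abundance + 0.5) scale. For 16607 (88.5%) it stayed inside a 2-fold change in either direction on that scale. For rare transcripts a 2-fold change on that scale is a larger change in abundance itself, so this bound is looser for them. At an unadjusted p below 0.05 stood 854 transcripts, or 4.55% of those tested, where 5% would be 938. Of these, 392 were higher and 462 lower in varicocele. A 2-fold difference at that unadjusted p was reached by 107 transcripts (0.57%), 48 higher and 59 lower. Just outside the call, at a limma adjusted p from 0.05 to below 0.10, were 3 transcripts: 2 that were at most 0.107 in control and from 0.716 to 2.76 in varicocele, and 1 that ran from 0.89 to 1.43 in control and from 0.151 to 0.19 in varicocele. All 3 entered the test only through the group in which they were high.

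**Figure D2:**
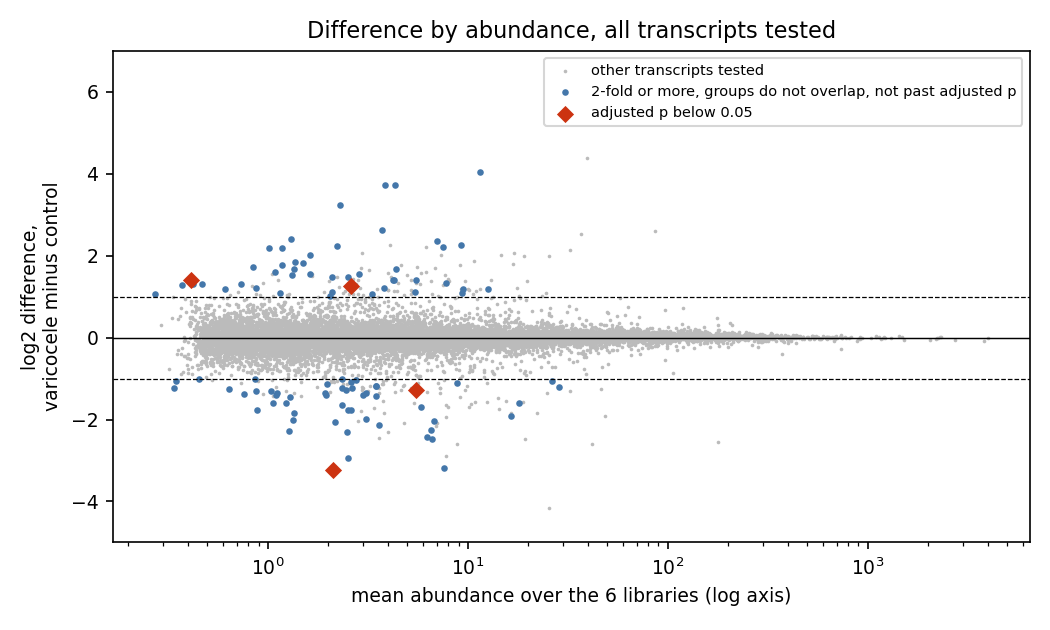
Log2 difference between varicocele and control for each of the 18757 transcripts tested, against mean abundance over the 6 libraries (log axis); dashed lines mark a 2-fold difference. Red diamonds are the 4 called transcripts and blue points the other 96 that were at least 2-fold apart with no overlap; the scatter narrows as abundance rises.

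Precision followed abundance. Among 2445 transcripts with a mean below 1 over the 6 libraries, the median SD was 0.230 within control and 0.228 within varicocele. These SDs are of log2(abundance + 0.5), a scale that shrinks the spread of rare transcripts. In that class 74.8% of the 95% intervals lay within 2-fold and 39.0% within 1.5-fold. From 1 to 5 the share within 1.5-fold was 59.0%. From 5 to 20 (5391 transcripts) the SDs were 0.107 and 0.113. There 92.5% of intervals lay within 2-fold and 83.1% within 1.5-fold. Among 977 transcripts at 100 or more, the SDs were 0.052 and 0.057. In this class 99.7% of intervals lay within 2-fold and 98.0% within 1.5-fold.

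Varicocele testes were slightly more variable than control testes among the abundant transcripts. The SD was larger within varicocele for 56.6% of transcripts at 100 or more and for 55.3% from 20 to 100, against 48.9% below 1. These shares are across transcripts of the same 6 libraries, which are not independent, and no test was made. They were not recomputed with a library left out, so a single library could carry them.

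The most abundant RNAs of the testis were the most closely bounded. For the 100 most abundant transcripts, with means from 415 to 4005, the median absolute log2 difference was 0.019, none reached an unadjusted p below 0.05, and 99 had a 95% interval within 1.5-fold. The share of the summed abundance that the top 100 held was 17.4%, 18.0% and 18.2% in the control libraries and 17.6%, 18.0% and 17.3% in the varicocele libraries. Those ranges overlap (17.9% ± 0.438 and 17.6% ± 0.372, SD, n = 3 each; exact permutation test, two-sided, p = 0.6, where 3 against 3 libraries cannot go below 0.1).

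Neither did the number of transcripts present separate the groups. An abundance of 0.5 or more was listed for 18355, 18341 and 18263 transcripts in the control libraries and for 18221, 18361 and 18149 in the varicocele libraries (exact permutation test, two-sided, p = 0.4). Transcripts below 0.05 numbered 312, 338 and 337 in the control libraries and 315, 310 and 300 in the varicocele libraries (exact permutation test, two-sided, p = 0.2). The ranges overlapped in both measures.

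Without any model, 1800 transcripts (9.6%) had no overlap between the 3 control and the 3 varicocele libraries, 861 of them higher and 939 lower in varicocele. At least 2-fold apart with no overlap were 100 (0.533%), 47 higher and 53 lower. Of these, 24 entered the test only through the group in which they were high, and when 4 of the 6 libraries had to reach 0.5 the count was 76, with 35 higher and 41 lower. The 100 were mostly of low abundance, with a median mean of 2.35 and none above 28.7. No transcript with a mean of 100 or more was among them.

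In all, 276 transcripts differed by at least 2-fold in the group means on the log2(abundance + 0.5) scale, 133 higher and 143 lower. The groups did not overlap in 36.2% of them, against 9.6% of all transcripts tested, and overlapped in the other 176. Picking transcripts for a large difference in the same libraries itself raises that share, so this is no test of separation. The largest differences in each direction, 4.39 and -4.17 on the log2 scale, were both among the overlapping ones. The difference stayed at 2-fold or more whichever of the 6 libraries was left out in 67 of the 100 separated transcripts and in 29 of the 176 overlapping ones. That contrast also follows in part from how the sets were formed, and it was not tested. Leaving out a single library removed between 54 and 64 of the 276 and brought in between 119 and 149 others.

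For the separated transcripts, the VC+MOP libraries were placed against the midpoint between the control and varicocele means. In 57 of the 100 they lay on both sides of it, as they did in 106 of the 176 whose groups overlapped. The share among all transcripts tested was not computed, so these counts do not set the 100 apart. Of the 100, in 21 all 3 lay on the varicocele side and in 22 all 3 on the control side. Of the called transcripts, ENSRNOT00000061032 and ENSRNOT00000038780 belong to the former and ENSRNOT00000023376 and ENSRNOT00000047241 to the latter.

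**Figure D3:**
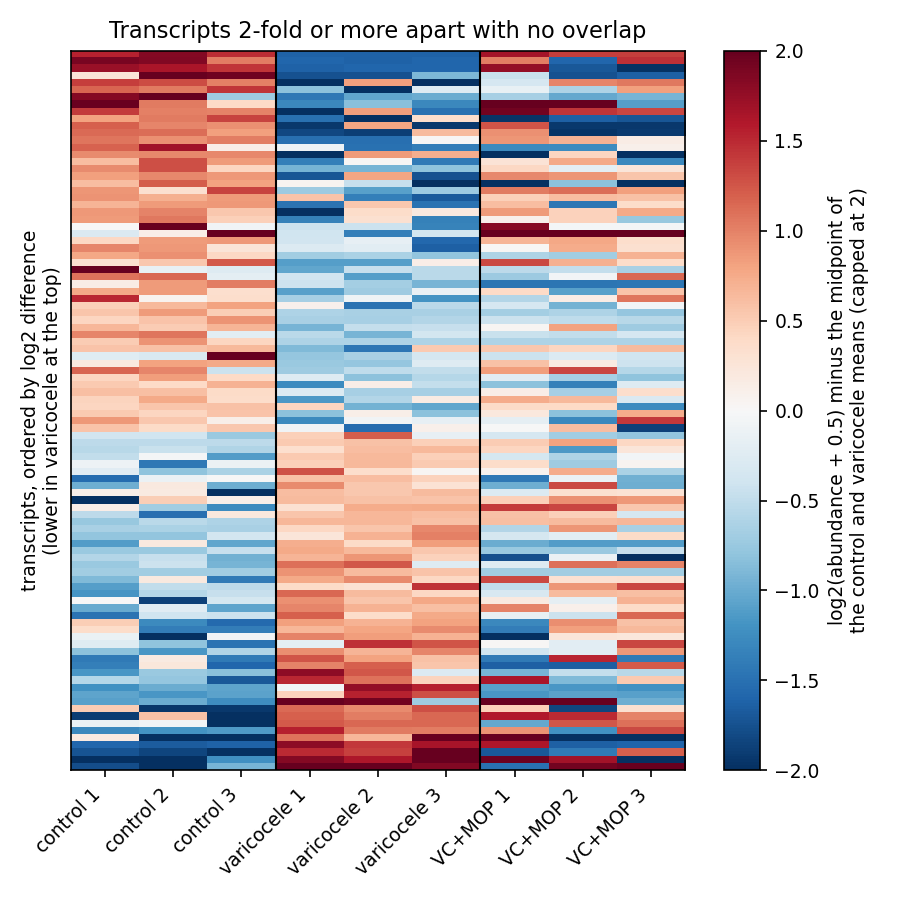
The 100 transcripts at least 2-fold apart with no overlap between control and varicocele, by library; colour is log2(abundance + 0.5) minus the midpoint of both group means, capped at 2. Control and varicocele columns differ in colour because the transcripts were picked for it; the VC+MOP columns, which were not used to pick them, show both colours within 57 of the 100.

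A few transcripts were close to off in one whole group. Below 0.05 in every control library and at 0.5 or more in every varicocele library were 5 transcripts, with varicocele levels from 0.506 to 5.16. The opposite pattern was seen in 3, with control levels from 0.528 to 5.24. By this definition all 8 entered the test only through the group in which they were high. ENSRNOT00000047241 and ENSRNOT00000023376, described above, are the ones among them that passed the limma threshold. In the VC+MOP libraries 3 of the 8 stayed below 0.05 throughout, 1 stood at 0.5 or more throughout, and the rest varied between libraries or lay between those limits.

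Pairs of libraries from different groups were about as far apart as pairs from the same group. Over the transcripts tested, the median absolute log2 difference was 0.13 to 0.141 for the 3 pairs of control libraries, 0.136 to 0.155 for the 3 pairs of varicocele libraries and 0.127 to 0.16 for the 9 pairs of a control with a varicocele library. More than 2-fold apart were 797 to 818 transcripts within control pairs, 715 to 784 within varicocele pairs and 762 to 813 between the groups.

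A small tilt with abundance ran through the comparison. Among transcripts with no overlap, those higher in varicocele made up 81.9% at a mean of 100 or more (68 higher, 15 lower) and 64.5% from 20 to 100 (200 higher, 110 lower), against 42.6% from 1 to 5 (277 higher, 373 lower) and 40.1% below 1 (103 higher, 154 lower). From 5 to 20 the share was 42.6% (213 higher, 287 lower). Transcripts with no overlap made up 8.5% of the class at 100 or more, 8.25% from 20 to 100 and 9.27% from 5 to 20. They made up 10.5% both from 1 to 5 and below 1, against 9.6% of all tested, so no class stood far from that share. The sizes were slight, with a median log2 difference of 0.019 at 100 or more and -0.021 from 1 to 5. Without varicocele 3 the median from 1 to 5 turned to 0.0007 and that below 1, which was -0.022, to 0.0014, and the share higher was 49.1% from 1 to 5 and 55.1% from 20 to 100. The tilt held with median-of-ratios scaling (81.3% and 69.8% for the top classes) but not after quantile normalization, which gives all libraries the same distribution (47.7% and 53.6%). At 100 or more the share was 57.3% without control 1 and between 70.1% and 82.9% without any other library. The median log2 deviation of that class from the mean of the 6 libraries was -0.022, -0.0069 and 0.01 in control and 0.003, 0.004 and 0.0211 in varicocele, so the groups overlapped. No test of the tilt was made, and it was noticed after the values were seen.

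**Figure D4:**
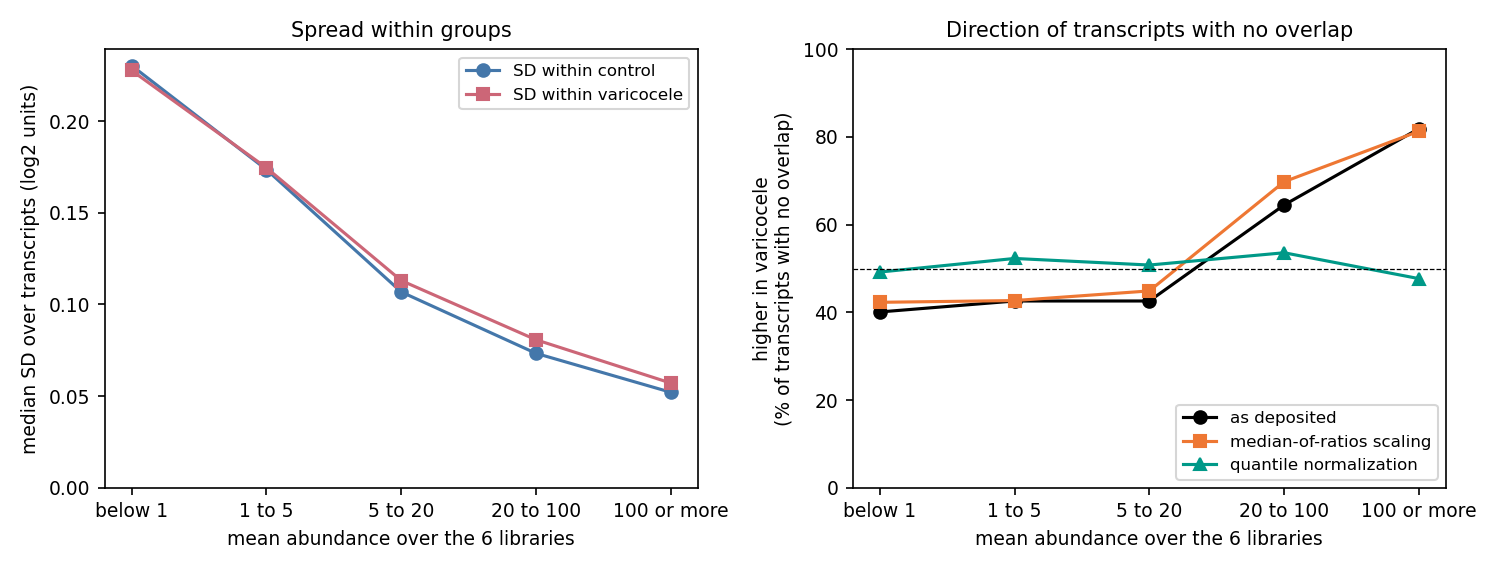
Left, the median SD of log2 abundance within control and within varicocele, by class of mean abundance over the 6 libraries; both shrink from about 0.23 below 1 to 0.052 and 0.057 at 100 or more. Right, the share of transcripts with no overlap that were higher in varicocele, under 3 scalings; it climbs to 81.9% in the top class as deposited and is 47.7% there after quantile normalization.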

How the data were processed

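Total RNA of the left testis was made into random-primed libraries with a dUTP-marked second strand, per the labels' protocols. The authors deposited a transcript abundance signal in which each column is 1 library, per the file headers. No unit is named there, and FPKM and TPM could not be told apart. The submitters' processing notes list StringTie 1.3.1c, HISAT2 2.0.5 and cutadapt without saying what each did. They also name hg19, a human build, although the identifiers are rat. No source used here names the rat annotation. Depth is unknown, which leaves no basis for counting intervals.

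Transcripts that reached 0.5 in at least 3 of the 6 compared libraries were analysed as log2(value + 0.5), a scale on which changes of rare transcripts come out too small. In R 4.3.3, limma 3.58.1 fitted all 9 libraries with group as the only term and a variance trend (6 residual degrees of freedom); p-values were two-sided and Benjamini-Hochberg adjusted over the whole table of 18757 transcripts. The fit was also run on simulated data with known changes and normally distributed spread. The outcome is not given here, so it does not tell how many real changes the fit would miss. Alternatives were other pseudocounts, filters, scalings, thresholds, variance settings, the 6 libraries alone, the replicate number as a block, and each library left out; the limit of 4 libraries was added after seeing the data. At most 2 transcripts per direction were named, those of smallest p. The transcripts and rules were chosen with earlier results of these data known. Gene lists and sums per gene could not be run without gene names. Figures were drawn with matplotlib 3.10.9.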

Additional observations from a re-analysis of the deposited data

How the results depend on the processing

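The 4 calls became 8 with the 6 compared libraries alone, 7 at an adjusted p below 0.10, 107 at 2-fold or more with an unadjusted p below 0.05, 2 with the limit of 0.5 in at least 4 libraries (by construction, since the other 2 were then not tested), and 2 to 10 with 1 library left out. With the replicate number as a block 1 call was left, ENSRNOT00000023376, and ENSRNOT00000061032 missed the threshold (limma adjusted p = 0.0706). Libraries with the same number did not deviate together (correlations from -0.061 to 0.051), and 3 of 9 libraries were closest to their own number. Pseudocounts, scalings, robust variances and the other filters gave 3 or 4 calls, all among the 4. The named transcripts were refitted 71 times under the alternatives and were called in 53, missed the threshold in 18 and reversed in 0. These refits reuse the same libraries, and the transcripts were picked for small p in them. The lack of reversals is therefore no separate support. The 100 separated transcripts at least 2-fold apart became 75 with a pseudocount of 1, 76 with the limit of 4 libraries, 84 with a mean of at least 1, 180 with a pseudocount of 0.1, which enlarges differences of rare transcripts, and 171 to 196 with 1 library left out, where fewer samples overlap less readily. The median absolute log2 difference stayed between 0.074 and 0.098. Differences in the measures per library kept their direction under each alternative run but not their size: with 1 library left out, that in the share of the top 100 ran from -0.456 to -0.029 percentage points (-0.214 with all), and that in transcripts at 0.5 or more from -134.7 to -28.7 (-76 with all). Sums per gene and gene lists were not run, for lack of gene names. Read depth is unknown. The median SE was 0.212 for transcripts with a mean below 1 and 0.05 at 100 or more.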
